A study of Homo sapiens with 12 samples.

Results

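A group of 35 genes stood over 4 times higher in SCC4 KO than in WT eHAP1 cells in each of 2 batches of single cells profiled by LAST-seq. The group included PROM1, which encodes the surface protein CD133, the sulfotransferase gene SULT1A1, and the ligand genes BMP7 and INHBB. The steroid reductase gene SRD5A1 also belonged, though 1 well held most of its counts in each SCC4 KO batch. A UMI is a random tag that marks 1 captured mRNA molecule, so that copies made during amplification are counted once, and levels are given as UMIs per 1000000 UMIs of all genes in a batch (UPM). The genes were chosen by 3 conditions on UMI counts, namely an average of 1 UMI or more for each cell of either genotype, a UMI in both genotypes, and a log2 ratio of SCC4 KO over WT above 2 in both batches, with 0.5 UMI added to each sum. Of 9773 genes that met the first 2 conditions and so could be members, 35 met the third, which is 0.358%. The same rule applied downward gave 42 genes, or 0.43%. In batch 1 alone 114 genes (1.17%) passed the upward threshold, and in batch 2 alone 136 (1.39%). Because the ratio of SCC4 KO over WT chose these genes, their ratios, levels and shares of positive cells in eHAP1 cells are given below as a description, with no test.

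eHAP1 is a haploid human cell line, so that 1 allele has to be disrupted to knock out most genes. SCC4 is the protein encoded by MAU2, the partner of NIPBL in the complex that loads cohesin onto chromosomes. Cohesin is a ring-shaped complex that holds sister chromatids together and folds interphase chromatin into loops, and it is known to take part in the contact between distal enhancers and promoters. LAST-seq adds a T7 promoter at the poly(A) end of the mRNA in a lysed cell and amplifies the message by transcription from the mRNA itself.

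The WT group held cells of unedited eHAP1, and the SCC4 KO group held cells of the same line after Cas9 had been delivered with a guide RNA against MAU2 and single-cell clones had been grown and checked by genotyping and Western blot. Both groups were grown from clonally expanded populations, kept with 10-Deacetylbaccatin-III, an agent added against loss of the haploid state, stained with Hoechst, and sorted for G1 phase. How many KO clones supplied the cells is not given in the sources used here. Each genotype was 1 library sample with 2 batches named in the labels, and the number at the start of each well's name was read as the batch. Effects of the knockout, of the clone and of the library therefore cannot be told apart, and the batches show only the spread within 1 sample a genotype. The study adjusted counts for batch with ComBat-seq in its own analysis, a step that brings batches closer together. Whether the deposited counts precede it is not stated, so nearness of batches below is not a measure of error. WT held 73 cells in batch 1 and 75 in batch 2, and SCC4 KO held 77 and 76. The UMIs per cell ran from 46288 to 347087 and from 18022 to 926415 in the WT batches, and from 44979 to 174807 and from 62926 to 320432 in the SCC4 KO batches. Between any pair of these 4 pools of cells, 70 to 75 well barcodes were shared, as the wells drew on 1 set of barcodes.

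The targeted gene was lower in SCC4 KO cells but still detected. MAU2 stood at 44.2 and 41.2 UPM in WT and at 9.17 and 14.5 in SCC4 KO, batch 1 first, a log2 ratio of -2.26 and -1.51. The share of cells with a MAU2 UMI was 97.3% and 94.7% in WT and 42.9% and 92.1% in SCC4 KO. UMIs count MAU2 mRNA of any sequence, and do not read the edit itself. NIPBL, the other subunit of the loader, had log2 ratios of 0.27 and -0.43. The guide is shown because it defines the perturbation, with its PAM in capitals. It matched exon 5 of the 19 exons of the canonical MAU2 transcript, in coding sequence, at chr19:19338850-19338869 on the plus strand of GRCh38.

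SCC4 guide and PAM: gcacacgcttgagaaggaccTGG

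The potassium channel gene KCNQ3, which was named together with PROM1 when the group was proposed, did not meet the rule. KCNQ3 encodes a subunit of the voltage-gated channels that carry the neuronal M current. Its UMIs numbered 7 and 1 in the WT batches. In SCC4 KO, batch 1 held 13 UMIs, all in 1 of 77 cells, and batch 2 held 921 UMIs, with at least 1 in each of 76 cells. The ratio without added UMIs was 2.13 in batch 1 (95% exact interval 0.789 to 6.30) and 970 in batch 2 (174 to 38359), the latter against 1 WT UMI. Its log2 ratio with 0.5 UMI added was 1.04 in batch 1 and 9.34 in batch 2, so the 2 batches of SCC4 KO cells stood on either side of the threshold. Other genes of the same channel family are given with the gene lists further on. The plot of batch 1 against batch 2 shows KCNQ3 and the 35 genes among all genes that could be members.

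**Figure D1:**
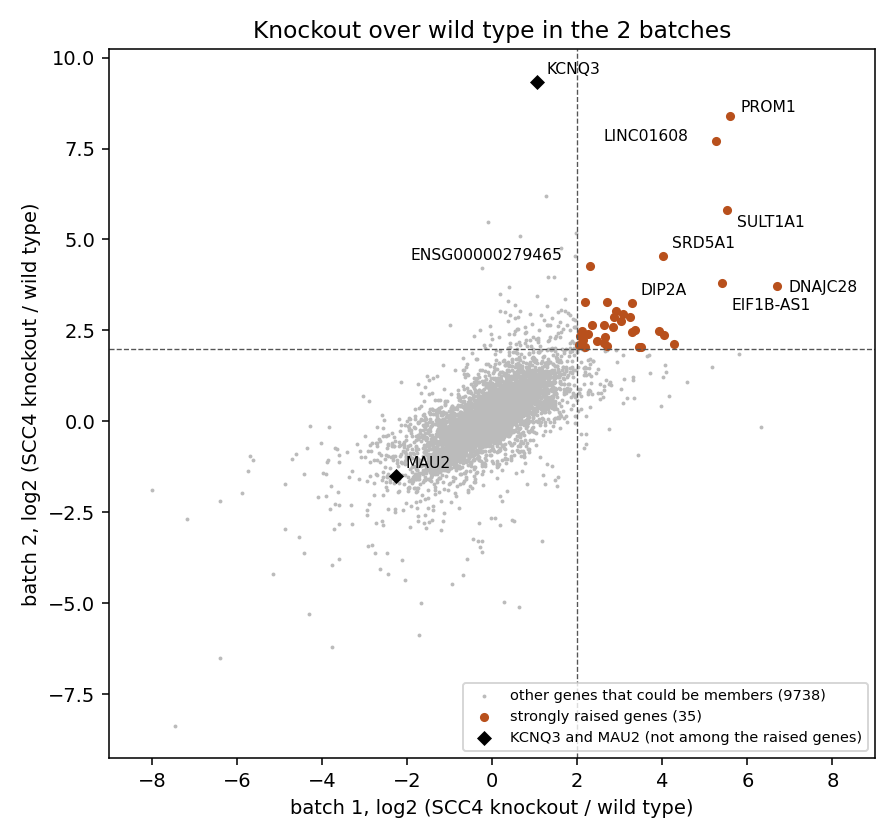
Log2 ratio of SCC4 KO over WT in batch 1 (horizontal) and batch 2 (vertical), with 1 point a gene for the 9773 genes that could be members; dashed lines mark the threshold of 2. The 35 raised genes fill the upper right corner, with PROM1, LINC01608 and SULT1A1 above 5 in both batches, while KCNQ3 stands at 9.34 in batch 2 and 1.04 in batch 1.

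The start regions of the members spanned the range from CpG-rich to CpG-poor. CpG-rich promoters are typical of genes used in many tissues and of developmental regulators, and CpG-poor promoters are more frequent among tissue-restricted genes. RefSeq promoter windows of GRCh38.p14, from 250 bases before to 50 bases after the start, were found for 24 of the 35 genes. The median window had 66.5% G and C and 29.5 CpG, against 66% and 27 over the 7239 genes that could be members and had a window. The 250 bases upstream of INHBB, the member with the most CpG, and of LMO3, among the members with few CpG, show the contrast, with each CpG in capitals. The INHBB stretch is chr2:120345886-120346135 on the plus strand, 89.6% G and C with 46 CpG. The LMO3 stretch is chr12:16608215-16608464 on the minus strand, 37.6% G and C with 1 CpG. It lies upstream of the RefSeq start but inside the LMO3 gene as annotated in the release used for positions (16548372 to 16610594), outside its exons.

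INHBB: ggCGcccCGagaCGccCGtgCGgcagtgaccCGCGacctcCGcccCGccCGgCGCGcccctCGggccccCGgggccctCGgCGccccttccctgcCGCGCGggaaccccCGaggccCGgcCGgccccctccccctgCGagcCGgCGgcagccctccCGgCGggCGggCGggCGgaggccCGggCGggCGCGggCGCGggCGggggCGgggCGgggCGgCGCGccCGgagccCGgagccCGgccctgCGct
LMO3: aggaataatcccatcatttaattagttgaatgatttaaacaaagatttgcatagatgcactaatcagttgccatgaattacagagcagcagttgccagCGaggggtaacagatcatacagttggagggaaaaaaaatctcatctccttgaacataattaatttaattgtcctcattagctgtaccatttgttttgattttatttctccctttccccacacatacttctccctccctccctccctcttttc

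Short motifs were compared as a description. Searched on both strands of the same windows, CCAAT was found in 50% of the 24 members and 37.5% of the 7239 genes, and GGGCGG in 79.2% and 73.1%. TATAAA was found in 1 member, ADM, or 4.17%, against 4.85%. CACGTG was found in 8.33% of members and 10.8% of genes, TGACGTCA in 8.33% and 3.58%, and TGACTCA in none of the 24 and 2.45%. With 24 windows, each share of members moves by 4.17 percentage points for 1 gene. The median span of a member gene was 30.4 kb, against 29.3 kb over the genes that could be members and were in the annotation.

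Levels of the 35 genes differed widely within each genotype. In WT, the median member stood at 2.85 UPM in batch 1 and 2.93 in batch 2, and the lowest at 0.136 and 0.163. In SCC4 KO, levels ran from 2.02 to 1243 and from 5.05 to 1228, with medians of 26.0 and 17.5. Summed over the group, 457 and 432 UPM in WT compared with 4758 and 4294 in SCC4 KO. The 5 highest genes held 73.5% and 73.0% of that sum in WT and 70.8% and 74.3% in SCC4 KO. SULT1A1 alone made up 26.1% and 28.6% of it in SCC4 KO. For 34 of 35 genes, both SCC4 KO batches were higher than either WT batch, the exception being ACRV1. The rule favours this outcome, and the share over all genes that could be members was not computed, so nothing is read from that count. In WT, 26 of the genes had a mean under 1 UMI per cell in both batches, so that most of the group entered the set of genes that could be members through the SCC4 KO cells alone.

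**Figure D2:**
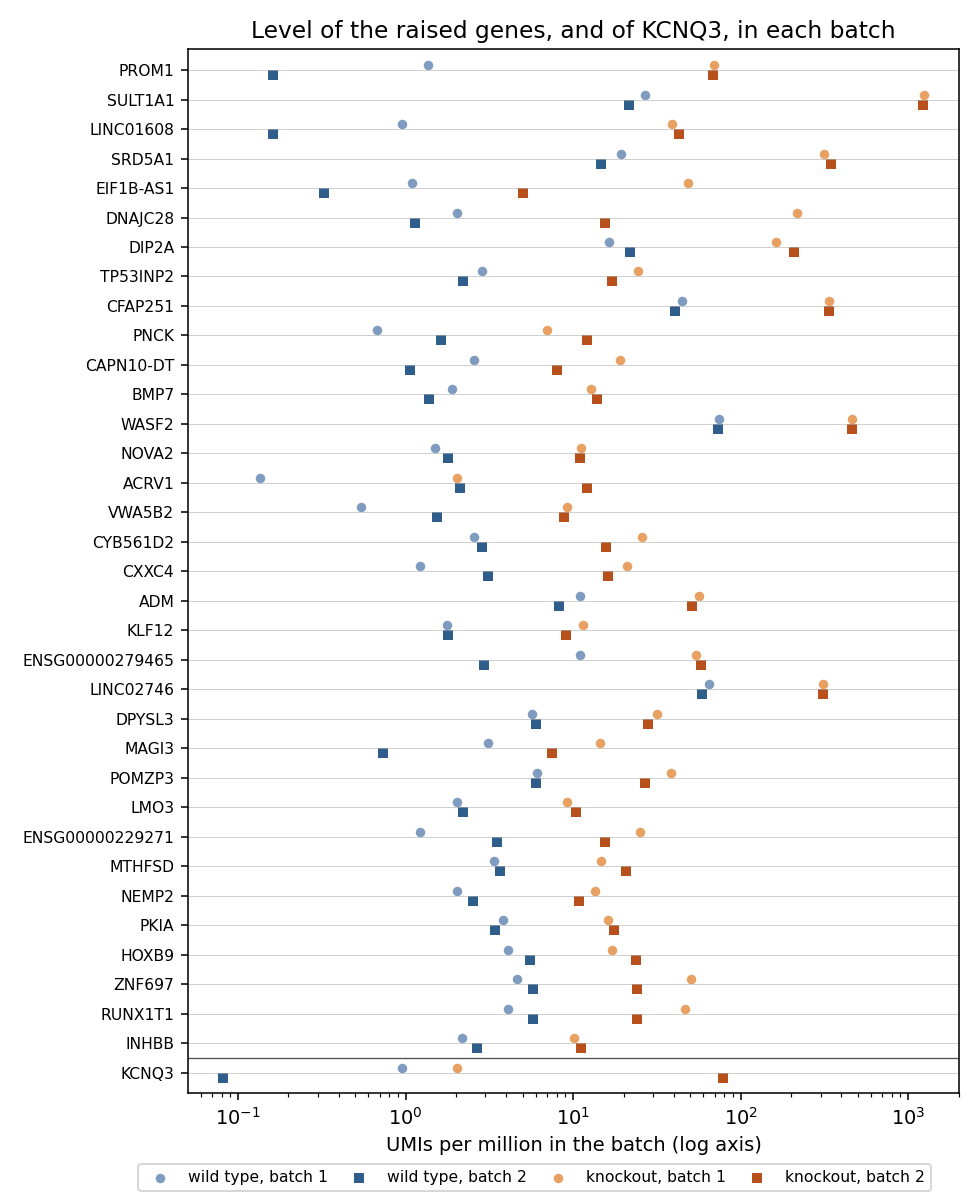
UPM (log axis) of 34 of the 35 raised genes, ordered by the smaller of their 2 log2 ratios, and of KCNQ3 below the line, with 1 point for each batch and genotype. WT points lie to the left of both SCC4 KO points for all genes drawn except ACRV1, which in SCC4 KO batch 1, at 2.02, lies just below WT batch 2, at 2.11.

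Among the surface marker and ligand genes, 4 members were found, with PROM1 far above the rest in ratio. PROM1 encodes prominin-1 (CD133), a membrane glycoprotein of cell protrusions that is widely used to mark stem and progenitor cells. PROM1 had 10 and 2 UMIs in the WT batches and 444 and 804 in the SCC4 KO batches. Its level was 1.36 and 0.163 UPM in WT and 69.0 and 68.8 in SCC4 KO. The ratio without added UMIs was 50.9 in batch 1 (95% exact interval 27.4 to 107) and 423 in batch 2 (117 to 3502), intervals that cover counting error only. The wide interval in batch 2 rests on 2 WT UMIs.

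The ligand genes were raised from low WT levels. BMP7, a bone morphogenetic protein that signals through SMAD proteins, stood at 1.90 and 1.38 UPM in WT and at 12.7 and 13.9 in SCC4 KO. INHBB encodes the beta B subunit shared by activin B and inhibin B, and stood at 2.17 and 2.68 in WT and 10.1 and 11.1 in SCC4 KO. Its log2 ratios were 2.19 and 2.04, the latter the lowest smaller ratio of the members. ADM, the gene of the vasodilator peptide adrenomedullin, was the most abundant of the ligand genes, at 11 and 8.21 in WT and 56.6 and 51.5 in SCC4 KO. For each of these ligands the levels of the genotypes did not overlap, which the rule favours.

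The enzyme genes described here number 5, with log2 ratios between 2.10 and 5.82. SULT1A1 encodes a cytosolic sulfotransferase that conjugates phenols, including drugs and catechols. It had 199 and 267 UMIs in the WT batches and 7998 and 14342 in the SCC4 KO batches, or 27.0 and 21.7 UPM against 1243 and 1228. Its ratio was 46.0 (95% exact interval 40.0 to 53.3) and 56.6 (50.1 to 64.1), the most precise of the ratios above 40. SULT1A2, its neighbour and close relative, whose start lies 17.2 kb away, had 58 and 37 UMIs in WT and 124 and 320 in SCC4 KO. Reads from near-identical parts of these genes could be assigned to either, so their split is uncertain.

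PNCK, a calcium/calmodulin-dependent kinase gene, stood at 0.678 and 1.63 in WT and 6.99 and 12.1 in SCC4 KO. CYB561D2, which encodes a membrane-bound cytochrome b561 family reductase, stood at 2.58 and 2.85 in WT and at 26.0 and 15.8 in SCC4 KO. MTHFSD, named for a methenyltetrahydrofolate synthetase domain, had log2 ratios of 2.10 and 2.48.

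A single well held most UMIs of SRD5A1 in each SCC4 KO batch. SRD5A1 encodes steroid 5-alpha reductase, which converts testosterone to dihydrotestosterone. It had 143 and 181 UMIs in WT and 2016 and 4052 in SCC4 KO. However, 1 cell of SCC4 KO batch 1 held 1531 of them and 1 cell of batch 2 held 3677, where the next highest cells held 20 and 26. These 2 wells carried the same well barcode, and the WT wells with that barcode held 0 and 3 SRD5A1 UMIs. Without the highest cell of each batch and genotype, 136 and 174 UMIs remained in WT and 485 and 375 in SCC4 KO. The log2 ratio was then 2.03 in batch 1 and 1.18 in batch 2, in place of 4.01 and 4.56, and SRD5A1 no longer met the rule. The other 34 genes still met the rule in that setting, which was chosen after seeing the data.

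A single well also weighed on DNAJC28, which encodes a J-domain protein, a family that works with Hsp70 chaperones. It had 15 and 14 UMIs in WT and 1404 and 180 in SCC4 KO, with 1310 of the UMIs of SCC4 KO batch 1 in 1 cell, where the next held 5. Without the highest cells, 94 and 143 UMIs remained in SCC4 KO and the log2 ratio was 3.23 and 3.85, in place of 6.70 and 3.71. For 4 of the 35 genes, the 2 highest cells of an SCC4 KO batch held over 50% of its UMIs, and EIF1B-AS1 and ACRV1 were the others besides SRD5A1 and DNAJC28. The part of amplification or of barcode sharing in these wells was not tested.

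Cytoskeleton and scaffold genes numbered 4, and 2 of them were already abundant in WT. WASF2 encodes WAVE2, which activates the Arp2/3 complex and with it the growth of branched actin. It stood at 74.8 and 73.7 UPM in WT and at 463 and 461 in SCC4 KO. CFAP251, a gene for a protein of cilia and flagella, stood at 44.9 and 40.7 in WT and 339 and 335 in SCC4 KO. DPYSL3, of the collapsin response mediator family known for its part in neurite growth, stood at 5.70 and 6.02 in WT and 31.5 and 28.0 in SCC4 KO. MAGI3, a scaffold protein gene of cell junctions, stood at 3.12 and 0.732 in WT and 14.5 and 7.54 in SCC4 KO, a spread between batches that was wide in both genotypes.

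Regulators of transcription, RNA and signalling in the nucleus were the largest group, with 8 genes at low to middle levels. HOXB9, a homeobox gene of the HOXB cluster that specifies position along the body axis, stood at 4.07 and 5.53 UPM in WT and 17.1 and 23.9 in SCC4 KO. Of its neighbours in the cluster, HOXB8 had 1 and 1 UMIs in WT and 9 and 15 in SCC4 KO, HOXB6 had log2 ratios of -0.05 and 2.63, and HOXB4 had -0.20 and -0.31. HOXB13 had -0.53 and -1.36.

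RUNX1T1 and ZNF697 were higher in batch 1 than in batch 2 of SCC4 KO. RUNX1T1 encodes the corepressor ETO, known as a fusion partner of RUNX1 in leukaemia. It stood at 4.07 and 5.77 in WT and at 46.5 and 24 in SCC4 KO. ZNF697, a zinc finger protein gene, stood at 4.61 and 5.77 in WT and at 50.8 and 24.1 in SCC4 KO. Both were among the members closest to the threshold through batch 2, with log2 ratios of 2.05 and 2.05.

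Of the other nuclear regulators, CXXC4, whose CXXC zinc finger binds unmethylated CpG and which also binds Dishevelled in the WNT pathway, had 9 and 38 UMIs in WT and 135 and 188 in SCC4 KO. KLF12, a transcriptional repressor of the Krüppel-like family, had 13 and 22 in WT and 74 and 106 in SCC4 KO. LMO3, a LIM-only cofactor without a DNA-binding domain of its own, had 15 and 27 in WT and 59 and 122 in SCC4 KO. NOVA2, a splicing regulator of neurons, had 11 and 22 in WT and 72 and 128 in SCC4 KO. TP53INP2, which acts in autophagy and as a coactivator of nuclear receptors, had 21 and 27 in WT and 158 and 200 in SCC4 KO. For these 5 genes the ratio's lower 95% bound by counting error lay between 2.52 for LMO3 and 8.79 for CXXC4 in batch 1, and between 3.12 for LMO3 and 5.20 for TP53INP2 in batch 2.

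The remaining protein-coding members were 7 genes of diverse roles. DIP2A, of the disco-interacting protein family, was the highest of them in batch 2, at 16.4 and 21.9 UPM in WT and 162 and 209 in SCC4 KO. PKIA, an inhibitor of protein kinase A, stood at 3.80 and 3.41 in WT and 16.2 and 17.5 in SCC4 KO. NEMP2, of the inner nuclear membrane, had log2 ratios of 2.69 and 2.08, and VWA5B2, with a von Willebrand factor A domain, had 3.92 and 2.48. ACRV1, a protein gene of the sperm acrosome, had 1 and 26 UMIs in WT and 13 and 142 in SCC4 KO. Its batches differed about as much as its genotypes, and its ratio in batch 1 was 14.9 with a 95% exact interval from 2.24 to 633.

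POMZP3 is a fused copy of parts of POM121 and ZP3, and shares sequence with both. POMZP3 stood at 6.11 and 6.02 UPM in WT and 38.2 and 26.9 in SCC4 KO. ZP3, a gene of the egg coat, had 2 and 10 UMIs in WT and 68 and 51 in SCC4 KO. POM121, a nuclear pore gene, had 14 and 148 in WT and 28 and 14 in SCC4 KO. How reads that match several of these copies were counted is not given in the sources used here, so the values of POMZP3 and ZP3 cannot be told apart with certainty.

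Members without an annotated protein numbered 6, of which 5 are lncRNA genes and 1 is of the annotation's type TEC, a transcribed region whose coding status is open. Long non-coding RNAs made up 14.3% of the members and 3.52% of the genes that could be members. The former share rests on 5 genes. Most members also passed the minimum level through the SCC4 KO cells alone, so nothing is read from this contrast. LINC01608 had 7 and 2 UMIs in WT and 250 and 499 in SCC4 KO, a ratio of 40.9 (95% exact interval 19.6 to 103) and 263 (72.4 to 2176), with levels of 38.9 and 42.7 UPM in SCC4 KO. LINC02746 was the most abundant of them, at 65.1 and 58.7 in WT and 310 and 309 in SCC4 KO. ENSG00000229271, which overlaps the germ cell gene DAZL on the same strand, had 9 and 43 UMIs in WT and 161 and 180 in SCC4 KO. DAZL itself had log2 ratios of -0.37 and -0.30.

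EIF1B-AS1 differed widely between the SCC4 KO batches, as DNAJC28 and ACRV1 did. It stood at 1.09 and 0.325 UPM in WT, at 48.5 in SCC4 KO batch 1 and at 5.05 in SCC4 KO batch 2. All cells of SCC4 KO batch 1 and 22.4% of those of batch 2 had a UMI. Of the 35 members, 5 differed more than 2-fold between the SCC4 KO batches, 4 of them higher in batch 1, and 11 differed more than 2-fold between the WT batches. Over all genes that could be members, 4.48% and 4.23% did so. Of the members, 18 had under 20 UMIs in a WT batch, and most passed the minimum level through the SCC4 KO cells alone. Nothing is read from the contrast with all genes.

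The TEC gene and 15 other members, or 45.7%, overlapped an annotated gene that had UMIs, against 44.8% of the annotated genes that could be members. For 12 members, or 34.3%, such a gene lay on the opposite strand, against 37.6%. The strand setting of the counting is not given in the sources used here, so reads of such a pair may not be separable. ENSG00000279465 had 81 and 36 UMIs in WT and 349 and 674 in SCC4 KO. ANKRD28, within which it lies on the opposite strand, went the other way, with 476 and 714 UMIs in WT and 134 and 213 in SCC4 KO. ACRV1 overlaps the checkpoint kinase gene CHEK1, whose log2 ratios were -0.45 and -0.62, and LMO3 overlaps MGST1, with -0.63 and -0.66. TP53INP2 overlaps NCOA6, with -0.64 and -0.34.

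Most members were seen in a minority of WT cells and in most SCC4 KO cells. The median member had at least 1 UMI in 20.5% and 32% of the WT cells and in 89.6% and 88.2% of the SCC4 KO cells. PROM1 was seen in 11% (95% exact binomial interval 4.85 to 20.5) and 2.67% (0.325 to 9.30) of the WT cells, and in 97.4% (90.9 to 99.7) and 100% (95.3 to 100) of the SCC4 KO cells. The median SCC4 KO cell held 5 PROM1 UMIs in batch 1 and 10 in batch 2, and the highest held 14 and 26. PROM1 UMIs were thus spread over the SCC4 KO cells of both batches and not held by a few. In SCC4 KO, 9 members in batch 1 and 12 in batch 2 had a UMI in every cell. A group of 6 members was seen in at least 80% of the cells of both WT batches.

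Cells differed in depth, so each was also thinned to 50000 UMIs, which left out 1 and 2 shallower WT cells and 1 SCC4 KO cell of batch 1. The median share was then 11.1% and 11% in WT and 75% and 51.3% in SCC4 KO. The share in SCC4 KO was above that in WT in both batches for 34 of 35 members. A total of 10 members were in under 50% of WT cells and at least 50% of SCC4 KO cells in both batches. The rule that chose the members favours both counts, and they were not made over all genes. PROM1 then stood at 92.1% and 94.7% of SCC4 KO cells and LINC01608 at 76.3% and 84.2%.

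**Figure D3:**
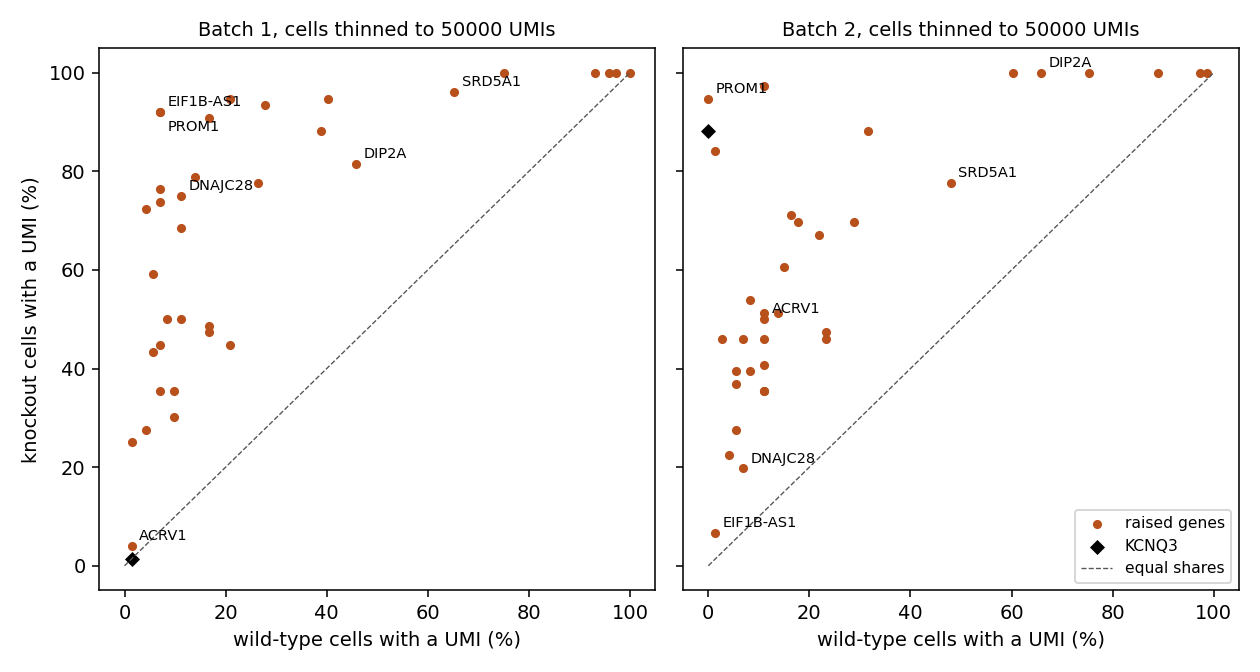
Share of cells with at least 1 UMI in WT (horizontal) and SCC4 KO (vertical) for the 35 raised genes and KCNQ3, per batch, each cell thinned to 50000 UMIs; the dashed line marks equal shares. PROM1 stands near the top left in both batches, EIF1B-AS1 falls from 92.1% of SCC4 KO cells in batch 1 to 6.58% in batch 2, and ACRV1 goes from 3.95% to 50%.

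A few members changed their share between batches of SCC4 KO cells in an all-or-little manner. At the deposited depth, ACRV1 was in 6.49% of SCC4 KO cells in batch 1 and 98.7% in batch 2, and DNAJC28 was in 92.2% and 38.2%. KCNQ3, outside the group, went from 1.30% to 100%. In all, 8 of the 35 shares were more than 30 percentage points apart between the SCC4 KO batches, and 7 were after thinning to 50000 UMIs. These counts were not made over all genes that could be members, so nothing is read from them about the group. SCC4 KO cells of batch 2 were deeper, with a median of 152433 UMIs against 81789. The WT batches had medians of 143882 and 89978.

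The number of members seen in a cell separated nearly all cells of the genotypes. At 50000 UMIs, a WT cell held a UMI of 6 to 14 of the 35 genes in batch 1, with a median of 9, and of 3 to 16 in batch 2, with a median of 8. An SCC4 KO cell held 17 to 28 in batch 1, with a median of 24, and 14 to 29 in batch 2, with a median of 21. The ranges did not overlap within batch 1 and overlapped between 14 and 16 within batch 2. The summed UMIs of the group at this depth ran from 10 to 47 and from 10 to 44 in WT cells and from 149 to 1098 and from 117 to 1031 in SCC4 KO cells, without overlap. The genes were chosen on these cells, so the separation is part of the choice. The lowest SCC4 KO cells, at 17 and 14 genes, were above the WT medians in both batches.

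**Figure D4:**
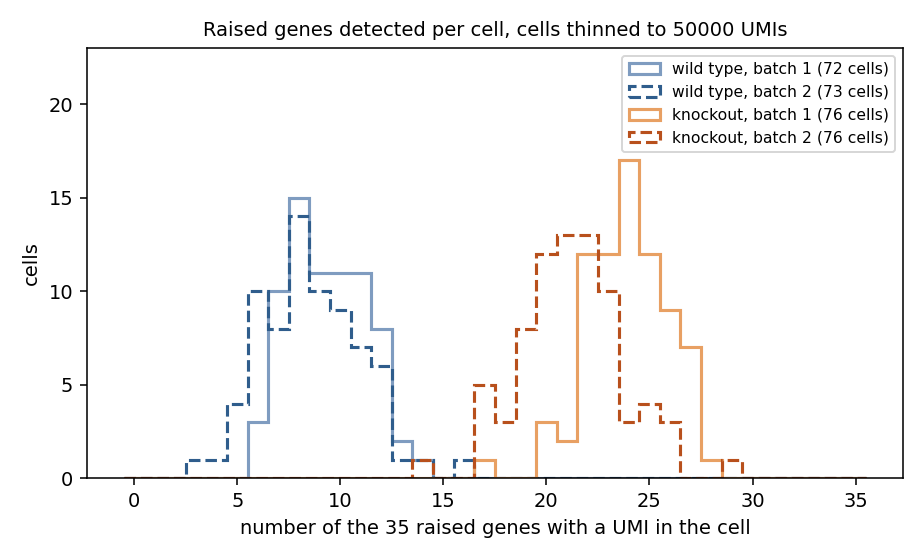
Number of cells (vertical) by how many of the 35 raised genes had a UMI (horizontal), for each genotype and batch, each cell thinned to 50000 UMIs. WT cells centre on 9 and 8 genes and SCC4 KO cells on 24 and 21, and in batch 2 the ranges meet between 14 and 16.

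The members lay on 16 of the 23 chromosomes with genes that could be members, with the most, 5, on chromosome 3, which holds 570 of the genes that could be members. No pair of members had starts within 500 kb. The closest pair was ENSG00000279465 and ENSG00000229271 on chromosome 3, 966 kb apart, and the next MAGI3 and ZNF697 on chromosome 1, 6258 kb apart. The median log2 ratio of a chromosome lay between -0.10 and 0.08 in batch 1 and between -0.03 and 0.13 in batch 2, so that the median gene of each chromosome stayed near its WT level.

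The genes around the members were compared with all genes. Among the 195 measured genes with a start within 500 kb of a member, 8 were raised and 8 lowered more than 2-fold in both batches, or 4.10% each. Over all annotated genes that could be members, 3.64% were raised and 3.55% lowered (3.64% and 3.54% of all 9773). Of the 70 nearest measured neighbours, 4 were raised, namely SULT1A2, SKP1P2, MYPOP and RNPEPL1, and 2 were lowered, SON and ANKRD28. SON, a splicing factor gene whose start lies 51.3 kb from that of DNAJC28, had log2 ratios of -1.42 and -1.48.

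Some members share a start region with another gene. A divergent start, with another measured gene starting within 1 kb on the other strand, was found for 6 members, or 17.1%, against 13.2% of the annotated genes that could be members. EIF1B starts 9 bases from EIF1B-AS1, on chromosome 3 at position 40309707, and had 204 and 358 UMIs in WT and 179 and 321 in SCC4 KO, with log2 ratios of 0.01 and -0.08. NPRL2, 19 bases from CYB561D2, had log2 ratios of 0.66 and -0.41, and CAPN10, 35 bases from CAPN10-DT, had -0.24 and -0.36. CAPN10-DT itself, a divergent lncRNA gene, had 19 and 13 UMIs in WT and 123 and 93 in SCC4 KO. NSUN2, an RNA methyltransferase gene 136 bases from SRD5A1, had -0.37 and -0.18. PHGDH, the first enzyme of serine synthesis, 145 bases from ZNF697, had 0.54 and 0.56. SBF2, 196 bases from ADM, had -0.10 and 1.35. None of the 6 partners passed 2-fold upward in both batches.

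Lists of genes related to the leading members were counted in the same way, beside 3.64% raised and 3.54% lowered more than 2-fold over all genes. Of 7 voltage-gated potassium channel genes that could be members, 1 was above 2-fold in both batches, KCNQ3 with 1.04 and 9.34, and 2 were below, KCNC4 with log2 ratios of -1.46 and -1.24 and KCNC1 with -1.57 and -2.58. Below the minimum of 1 UMI per cell, channel genes went either way. KCNQ1 had 0 and 0 UMIs in WT and 22 and 57 in SCC4 KO, and KCNQ5 had 0 and 0 and then 7 and 27. In the other direction, KCNH6 had 11 and 22 in WT and 0 and 0 in SCC4 KO, and KCND1 had 34 and 48 and then 10 and 11. Of 8 surface marker genes of stem and progenitor cells, PROM1 was above 4-fold, and PODXL, the gene of podocalyxin, was just above 2-fold, at 136 and 135 UPM in WT and 274 and 272 in SCC4 KO. CD24 had log2 ratios of -0.66 and -0.57, and, below the minimum, CD44 had 15 and 28 UMIs in WT and 1 and 0 in SCC4 KO, and THY1 had 8 and 91 and then 0 and 0. Other markers below the minimum went up. CD34 had 0 and 0 UMIs in WT and 7 and 11 in SCC4 KO, and L1CAM had 0 and 0 and then 13 and 7. KIT had 12 and 26 and then 25 and 50, and NGFR had 6 and 13 and then 12 and 48.

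In the TGF-beta and BMP pathway, 25 genes could be members. BMP7 and INHBB were above 4-fold, BMP2 was above 2-fold with log2 ratios of 1.65 and 1.42, and none was below 2-fold in both batches. BMP4 had -0.46 and -1.07. The median log2 ratio over the 25 genes was 0.12, against 0.03 over all genes that could be members. In the WNT pathway, 22 genes could be members, of which 3 were above and 2 below 2-fold. SFRP1, a secreted WNT antagonist, was at 35 and 41.4 UPM in WT and 3.42 and 8.31 in SCC4 KO. Of 8 adhesion genes 2 were above 2-fold, the cadherin genes CDH2 and PCDH9, and none of 2 cancer-testis antigen genes and 2 glutamate and GABA receptor genes passed it in either direction. Of 11 genes of the cohesin ring, its loader and its regulators, with CTCF, MAU2 was the 1 past 2-fold in both batches.

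Markers of other cells were checked beside these values. None of 16 blood cell marker genes reached 1 UMI per cell, and their summed level was 3.66 and 4.88 UPM in WT and 7.46 and 5.14 in SCC4 KO. A list of 10 genes used to mark HEK293T cells summed to 6142 and 6263 in WT and 3731 and 3737 in SCC4 KO, nearly all of it UCHL1. Of the 6 that could be members, 1 was above 2-fold in both batches and none below, with a median log2 ratio of -0.11. Below the minimum, NEFL had 0 and 0 UMIs in WT and 51 and 169 in SCC4 KO. The part of other cells in the group's values was not tested.

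HEK293T, a human embryonic kidney line profiled with the same assay, allowed a look at the group outside eHAP1 cells. Each of its LAST-seq libraries held 10 single cells, of 87796 to 197212 and 111453 to 192097 UMIs a cell including spike-ins. The spike-in mix differed between these libraries. HEK293T cells were grown in another medium than eHAP1 cells, were pooled in smaller numbers, and are not described as sorted for G1 phase. Effects of line, culture, sorting and pooling therefore cannot be told apart in this comparison. A UMI was found in both libraries for 23 members, or 65.7%, against 95.8% of the genes that could be members, and 7 had none in either. Most members passed the minimum of 1 UMI per cell through the SCC4 KO cells alone, so nothing is read from that difference. A count of 0 was taken to allow up to 3 UMIs, a fixed limit apart from the exact intervals. This is 2.11 and 1.99 UPM in these libraries, which is above the WT eHAP1 level of several members. PROM1 had 0 UMIs in both HEK293T libraries, so it was not detectable there at this depth.

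Both HEK293T libraries were below both SCC4 KO batches for 29 of 35 members, and for 22 of them the 95% counting intervals were also apart. Over all genes that could be members 35.4% were below, but the members were chosen for a high SCC4 KO level, so nothing is read from that count. Above both WT batches stood 9 members, or 25.7%, against 38.2% of all genes that could be members. Below both WT batches stood 17 members, some of them with no UMI in either library. The share over all genes was not computed for that count. The WT level was part of the rule that chose the members, so nothing is read from these counts and shares either. SULT1A1, at 6.32 and 4.64 UPM, and LINC02746, at 21.8 and 19.9, were below WT eHAP1 cells beyond their counting intervals. PKIA, at 44.9 and 28.5, and HOXB9, at 44.2 and 109, were above SCC4 KO cells beyond their counting intervals. BMP7, at 16.8 and 30.5, and KLF12, at 20.4 and 33.1, also stood above both SCC4 KO batches, and ADM, at 16.1 and 32.5, stood between the genotypes. WASF2, at 73.7 and 58.3, was near its WT eHAP1 level.

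**Figure D5:**
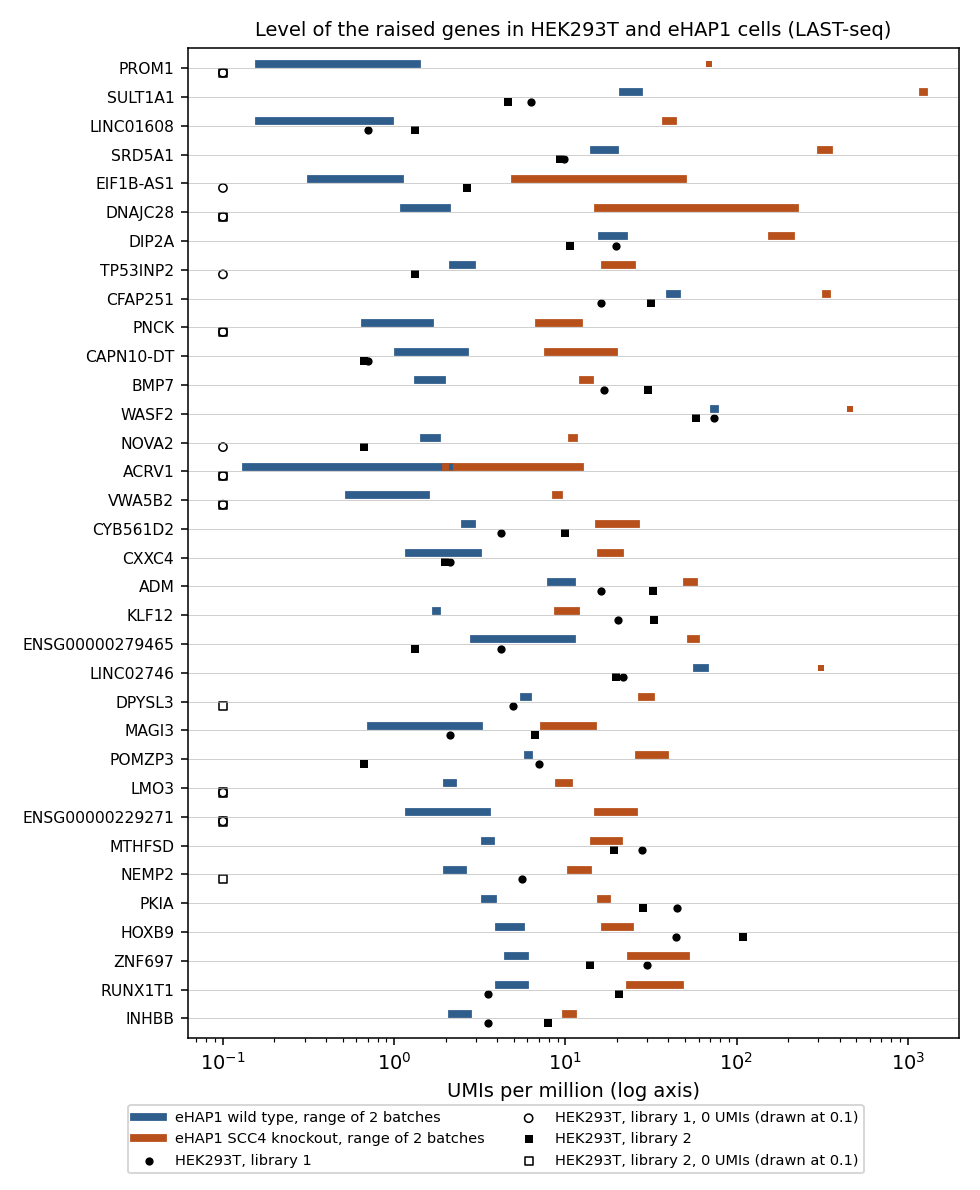
UPM (log axis) of 34 of the 35 raised genes in the 2 LAST-seq libraries of HEK293T cells (black points, open where no UMI was found, drawn at the left edge) and the range of the 2 batches of WT (blue) and SCC4 KO (orange) eHAP1 cells. Circles are library 1 and squares library 2. HOXB9, PKIA, BMP7 and KLF12 lie above the SCC4 KO range in HEK293T cells. SULT1A1 and LINC02746 are among the genes that lie below the WT range.

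Other assays of HEK293T cells gave a partly different order. With CEL-seq2, 19 members stood above both WT eHAP1 batches, and MAGI3 was at 84.9 and 60.4 UPM, against 2.11 and 6.62 with LAST-seq. The share over all genes was not computed for CEL-seq2, so nothing is read from that count. For PROM1, CEL-seq2 gave 5 and 2 UMIs, and the SMART-seq cells gave no read. Levels from different assays were not scaled to each other, and the eHAP1 cells were profiled by LAST-seq only.

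The values around the threshold ran without a gap. Just inside stood INHBB, RUNX1T1 and ZNF697, with smaller log2 ratios of 2.04, 2.05 and 2.05. Just outside stood ENSG00000225339 and ENSG00000269242, both at 2.00 after rounding and under the threshold in batch 1, and PDIA6, a protein disulfide isomerase gene, at 1.98 in batch 2. Requiring a log2 ratio above 3 in both batches left 7 members, which were PROM1, SULT1A1, LINC01608, SRD5A1, EIF1B-AS1, DNAJC28 and DIP2A. For SRD5A1, the log2 ratios were 2.03 and 1.18 without the highest cell of each batch and genotype. In counting error alone, the lower bound of the ratio was above 2 in both batches for all 35 members and above 4 for 15. Of the 35, 18 had under 20 UMIs in a WT batch, and 3 had 3 or fewer.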

How the data were processed

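The authors deposited tables of whole-number UMI counts per gene and cell for 1 WT and 1 SCC4 KO library of eHAP1 cells, and UMI or read counts for HEK293T cells. Per the labels and the study's methods, reads were demultiplexed with bcl2fastq 2.20, aligned to GRCh38 with annotation release 33, counted in exons, and UMIs were collapsed by sequence identity. The study removed wells under 50000 exon reads or under 50% exon mapping. Its later analysis used ComBat-seq to adjust for batch. Whether the deposited counts precede that step is not stated.

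UMIs were summed per batch and genotype, 0.5 was added for ratios, and levels were divided by the summed UMIs of all genes. With 1 library a genotype no test was run. Intervals are exact (Poisson or binomial, 95%) and cover counting error only. The members and gene lists were chosen with earlier results of these data known, and functional groups, overlapping and related genes after their values were seen. Named genes were KCNQ3, PROM1, the 20 members with the highest smaller ratio, the 3 on each side of the threshold, the 5 members highest in SCC4 KO, in share of positive cells and in HEK293T, and every other member once by function. Other genes were named from the lists or after their values were seen. Positions come from GENCODE release 44, which held 99.7% of the genes. Cells were thinned without replacement to 50000 and 20000 UMIs. The rule was run on simulated Poisson counts that held no single high wells and no batch differences. That run checks the code only and says nothing about these data. Tried alternatives were other scalings, added UMIs, filters, thresholds, cell weights and single batches, and, after seeing the data, leaving out the highest cells. Python 3.11.15, pandas 2.3.3, scipy 1.17.1, edgeR 4.0.16 and DESeq2 1.42.0 (for scaling factors) were used. Values of 1 member and of 1 gene of the lists are not reported here, while counts and sums over the members include that member.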

Additional observations from a re-analysis of the deposited data

How the results depend on the processing

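The group of 35 genes ranged from 24 genes, with a mean of at least 2 UMIs, to 52, without the 2 highest cells per gene, over the settings that kept the threshold, a minimum mean and both batches. TMM factors and DESeq2 size factors each gave 32 genes, 30 of them among the 35, and lost NEMP2, HOXB9, ZNF697, RUNX1T1 and INHBB. It stood at 40 when each cell was counted once, a setting under which KCNQ3 met the rule and POMZP3 and RUNX1T1 did not. It stood at 46 without the highest cell per gene, a setting chosen after seeing the data, which lost SRD5A1. With no minimum mean the rule gave 166 genes, with a log2 ratio above 1 it gave 356 and above 3 it gave 7. A single batch gave 114 to 136 genes, as batch 1 alone or batch 2 alone. Over single batches the log2 ratio ranged from 1.04 to 9.34 for KCNQ3, from 5.60 to 8.40 for PROM1 and from 2.59 to 2.91 for the median member. The median share of positive cells, as a mean of the batches, was 26.3% in WT and 88.9% in SCC4 KO. It was 5.39% and 58.8% with at least 2 UMIs, 11% and 63.2% at 50000 UMIs a cell, and 5.44% and 35.9% at 20000. Members within 1000 kb made 1 pair. With CEL-seq2, 19 members stood above both WT batches in HEK293T cells in place of 9, and a single LAST-seq library gave 11 to 13. The ratios were taken within each batch number. Whether a shared batch number means that cells of both genotypes were processed together is not given in the sources used here. With 1 library a genotype no test was run, so no paired analysis and no fit with a batch term was made. Depth limits the WT levels, which rest on under 20 UMIs in a batch for 18 members.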
